A study of Mus musculus with 75 samples.

Results

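The ATF4 amino acid and stress response genes described here are 37 genes: the transcription factor gene Atf4 itself, genes of its partner factors, and genes of enzymes, transporters, tRNA synthetases and other effectors that are known as ATF4 targets. They were taken by symbol from a list drawn up because Chac1 and Pck2 were lower in the Cyp26-E2 deletion, so the values of that deletion against its control chose the list and are given below as a description with no test. All 37 were found among the 52535 entries of the receptor knockout table, the 52535 entries of the overexpression table and the 52636 entries of the enhancer table, and all 37 passed the filter on low counts in each table.

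The study measured RNA by sequencing in E14, a mouse embryonic stem cell line from the blastocyst, and the libraries were made 24 h after RA (retinoic acid) was added at 2 µM and LIF and the 2i inhibitors were withdrawn. Every RNA library used here shares the line and this treatment. The knockout table holds the control WT-RARX, cells without the RA receptor gene Rara (Rarα-KO), cells without its partner receptor gene Rxra (Rxrα-KO) and cells without both (RARX-DKO), with 2 libraries in each group. The overexpression table holds V-OE, Rarα-OE and Rxrα-OE, again with 2 libraries each, where V-OE is used as the control and its V is not spelled out in the labels. The enhancer table holds 3 libraries of the control WT-Cyp26 and 3 of each deletion of an enhancer of the Cyp26 genes, which code for RA-degrading enzymes; these deletions are Cyp26-E1-KO and Cyp26-E2. The sample titles of Cyp26-E2 lack the word KO, which the design text supplies. In the enhancer table the mutant columns carry codes, Ac and b, that were matched to Cyp26-E1-KO and Cyp26-E2 through the codes a and b of other tables of these 2 enhancers, and this match is unsure. The sources used here do not say how the alleles were made, whether a group is 1 clone, or what drives the overexpressed receptors. Replicates are called biological, but nothing says that they came from separate cultures, so p-values measure only the spread between these libraries, which may be technical.

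ATF4 is a basic leucine zipper transcription factor. Its protein is made when eIF2 is phosphorylated by one of a family of kinases that sense a lack of amino acids, unfolded protein, a lack of haem or double-stranded RNA, so its activity depends on translation more than on its own mRNA. Together with C/EBP partners it binds composite elements near genes for amino acid synthesis, uptake and tRNA charging, and it induces further regulators such as CHOP (Ddit3) and TRB3 (Trib3). In bulk RNA a lower level in all cells and a smaller share of expressing cells cannot be told apart.

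The core of the C/EBP-ATF composite element was searched because it is the sequence that ATF4 is known to bind. TGATGNAA and its reverse complement TTNCATCA were looked for in RefSeq promoters of build GRCm38.p6, each running from 250 bases before a gene start to 50 bases after it, on both strands. Of the 37 genes, 31 were in the promoter table and 13 of these held at least 1 match, or 41.94%, whereas 1219 of all 27025 genes in the table did, or 4.51%. Counted over promoters, of which a gene can have several, 1304 of 32851 of that length held one, or 3.97%. A match is a description and not evidence of binding, and the list was itself drawn from knowledge of ATF4 targets. The windows below show 60 bases around the matches of 5 members that the results turn on, with the matches in capitals.
Chac1, chr2:119351023-119351082, plus strand: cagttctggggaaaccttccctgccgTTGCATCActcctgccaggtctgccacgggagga
Pck2, chr14:55540137-55540196, plus strand: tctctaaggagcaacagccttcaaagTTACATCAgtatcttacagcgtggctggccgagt
Pycr1, chr11:120643818-120643877, minus strand: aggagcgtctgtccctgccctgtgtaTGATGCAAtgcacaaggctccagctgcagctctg
Slc7a11, chr3:50443646-50443705, minus strand: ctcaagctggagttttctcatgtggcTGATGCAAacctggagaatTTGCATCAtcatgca
Atf3, chr1:191183410-191183469, minus strand: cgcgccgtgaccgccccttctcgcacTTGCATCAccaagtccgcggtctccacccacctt
The windows of Chac1, Pycr1 and Slc7a11 lay in no annotated gene, that of Pck2 lay within Gm10876 but in none of its exons, and that of Atf3 lay in an intron of a longer Atf3 transcript. Slc7a11 was the only one of the 5 with 2 matches, in opposite orientation, the first base of one 66 bases and of the other 47 bases before the gene start. In Chac1 the match began 193 bases before the start, and in Pck2 and Pycr1 it began 103 bases before it. Members not listed in the promoter table are Cth, Eif4ebp1, Nars, Slc7a3, Slc7a5 and Wars.

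Total counts ran from 7408691 to 13052102 in the knockout libraries, from 7835519 to 11453063 in the overexpression libraries and from 28397794 to 33601996 in the enhancer libraries. Levels are given as CPM (counts relative to the library size, which was scaled by the TMM method within a table), and levels of different tables are not compared. Rara was at 99.3 and 83.2 CPM in Rxrα-KO but at 4.37 to 6.53 CPM in Rarα-KO and RARX-DKO. Cyp26a1 was at 368 to 385 CPM in WT-Cyp26 and at 33.8 to 58.8 CPM in Cyp26-E1-KO. In Cyp26-E2 it was at 363 to 391 CPM, no lower than in the controls, and Cyp26c1 was at 9.78 to 12.7 CPM against 10.8 to 16.4 CPM, so neither gene checks that label. In Rxrα-KO and RARX-DKO, Rxra was at 13.6 to 27.6 CPM against 38.2 and 46.0 CPM in WT-RARX. The overexpressed receptor was at 104.5 and 111 CPM (Rara in Rarα-OE) and at 202 and 204 CPM (Rxra in Rxrα-OE), beside 51.6 and 52.4 CPM and 45.7 and 42.9 CPM in V-OE. Replicate 2 of Cyp26-E1-KO stands apart, since pairs that include it differed with up to 47.98 times the variance of counting alone against at most 9.3 times for the other pairs of that table. Library pairs within a group differed by 1.88 to 2.22 times the counting variance in the overexpression table and by 7.74 to 13.48 times in the knockout table. P-values and shares of genes called are therefore not compared between tables. The 2 Rxrα-KO libraries differ in the members themselves, as given below. Stem cell markers (6 of 6 genes detected) summed to 5369 to 5551 CPM in V-OE, 3964 to 4005 CPM in Rarα-OE and 1424 to 1453 CPM in Rxrα-OE, to 1596 to 1667 CPM in WT-Cyp26 against 1292 to 1519 CPM in both deletions, and to 2910 to 2928 CPM in WT-RARX against 3602 to 4525 CPM in the 3 knockout groups. The 7 extraembryonic endoderm markers summed to 80.1 to 83.4 CPM in V-OE and to 414 to 443 CPM in the receptor overexpression groups, to 162 to 176 CPM in WT-RARX, 81.6 to 98.9 CPM in Rarα-KO, 221 to 238 CPM in Rxrα-KO and 62.3 to 67.6 CPM in RARX-DKO, and to 398 to 430 CPM in WT-Cyp26 against 447 to 551 CPM in the deletions. The 4 trophoblast markers summed to 29.4 to 32.6 CPM in V-OE and to 253 to 328 CPM in the receptor overexpression groups. The 4 neuroectoderm markers summed to 70.0 to 80.1 CPM in V-OE, 36.1 to 40.6 CPM in Rarα-OE and 22.9 to 23.8 CPM in Rxrα-OE, and to 42.1 to 47.2 CPM in WT-RARX against 47.6 to 95.3 CPM in the knockout groups. The 6 fibroblast markers summed to 1.43 to 7.75 CPM, with 1 to 5 of them at 0 in each library. The part of these marker differences in the results below was not tested.

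Most ATF4 response genes were lower in Cyp26-E1-KO than in WT-Cyp26. By edgeR's quasi-likelihood test with Benjamini-Hochberg adjustment over all genes, 20 of the 37 fell and 1, Atf5, rose at an adjusted p under 0.05, where 25.3% of all 18768 tested genes were called, 13.1% higher and 12.1% lower. The median log2 fold change of the 37 genes was -0.41, beside -0.01 over all tested genes. For 22 members all 3 deletion libraries lay below all 3 controls, as they did for 19.7% of all tested genes. For 1 member they lay above, as for 20% of all tested genes. Among the 35 genes other than Chac1 and Pck2, 18 fell and 1 rose. The counts by role given below stand beside the same 13.1% of all tested genes called higher and 12.1% lower. This comparison uses the same WT-Cyp26 libraries as the one that chose the list, so the 2 comparisons are not independent. With replicate 2 of Cyp26-E1-KO left out, all 21 calls remained and the counts were 24 lower and 3 higher of 37. In that run 6217 of 19368 tested genes were called, 3214 higher and 3003 lower.

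In the Cyp26-E2 libraries, given as a description, 21 of 37 members were lower and 1 higher at the same threshold, where 17.5% of all tested genes were called, 9.28% higher and 8.2% lower. Their median log2 fold change was -0.51, beside 0.00 over all tested genes. For 30 members all 3 libraries lay below all 3 controls, as they did for 20.8% of all tested genes. For 2 members they lay above, as for 20.7% of all tested genes. Leaving out Chac1 and Pck2 left 19 lower and 1 higher of 35. Since this comparison chose the list, nothing is read from these counts.

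**Figure D1:**
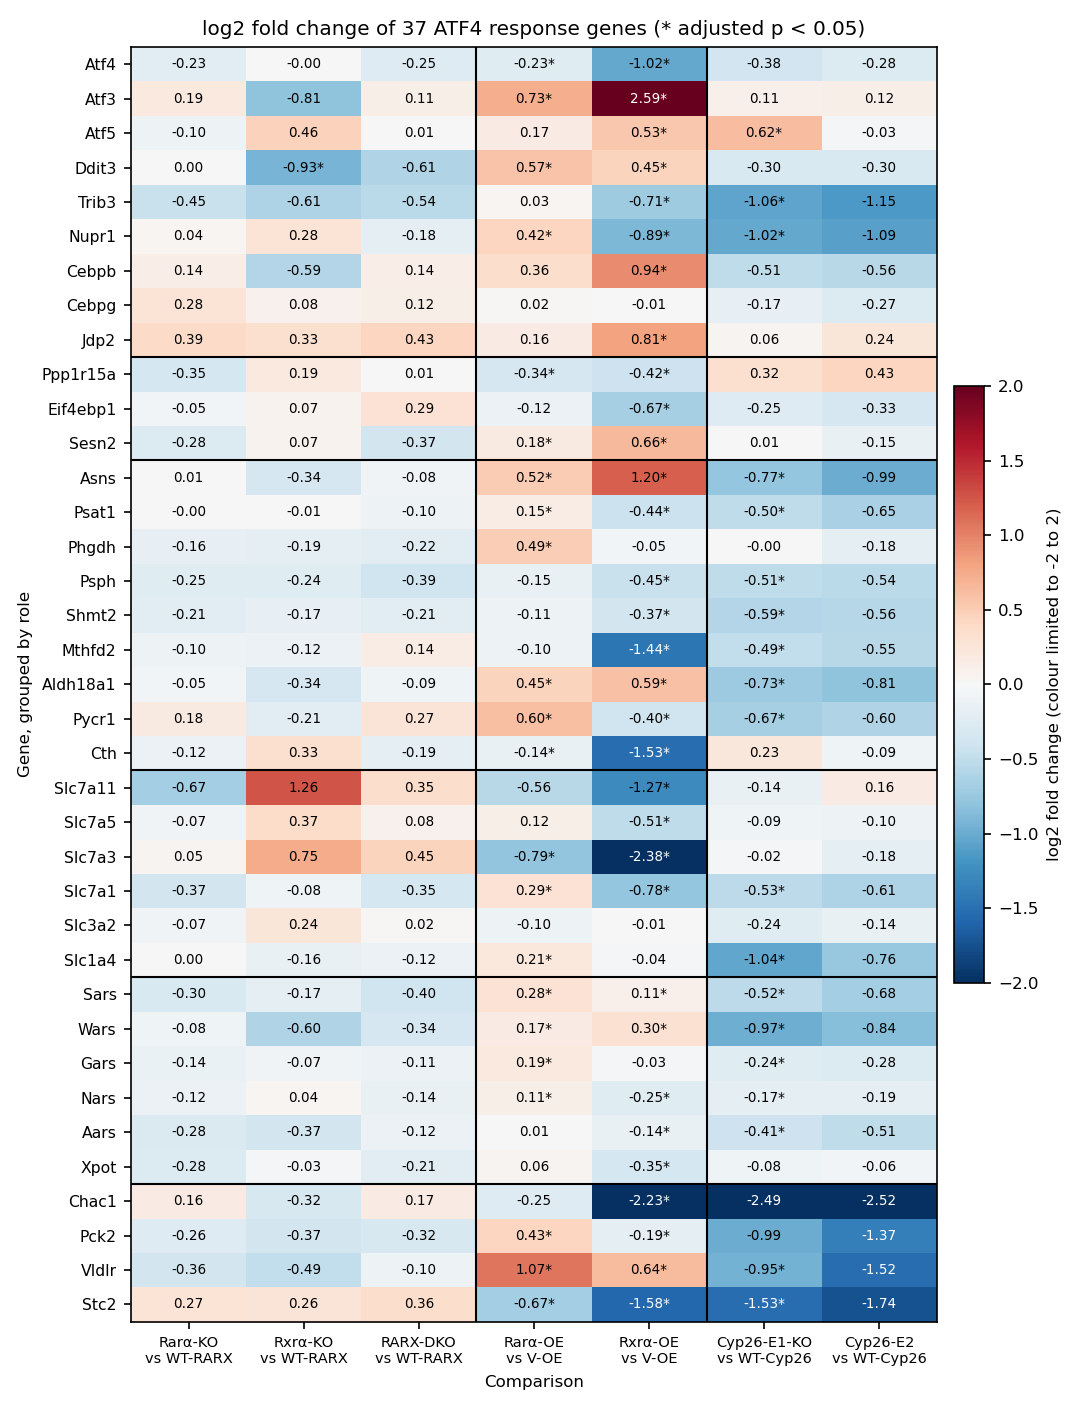
Log2 fold change of each of the 37 genes (vertical axis, grouped by role) in 7 comparisons of a mutant with its control (horizontal axis). Asterisks mark an adjusted p under 0.05 and are omitted for Cyp26-E2, and for Chac1 and Pck2 in Cyp26-E1-KO; blue cells dominate both enhancer deletion columns, with Chac1 at -2.49 and -2.52, while the 3 knockout columns hold a single asterisk, at Ddit3.

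The 4 other effectors include Chac1 and Pck2, whose low values chose the list, so the low place of this group is no finding. Chac1, at chr2:119351229-119354381 in mm10, codes for a glutathione-degrading enzyme and is one of the best-known targets of the ATF4, ATF3 and CHOP axis. It was at 23.01, 25.0 and 26.9 CPM in WT-Cyp26, at 5.24, 3.67 and 4.37 CPM in Cyp26-E1-KO and at 5.03, 3.33 and 4.65 CPM in Cyp26-E2. Both deletions lay far below the controls with no overlap, at log2 fold changes of -2.49 ± 0.16 (SE) and -2.52 ± 0.16. Pck2, the mitochondrial phosphoenolpyruvate carboxykinase gene at chr14:55540266-55551242, was at 66.1, 66.9 and 66.4 CPM in the controls, at 34.4, 31.0 and 34.8 CPM in Cyp26-E1-KO and at 28.0, 22.98 and 26.2 CPM in Cyp26-E2. The control libraries of Pck2 were nearly equal, and the 3 groups did not overlap, with Cyp26-E2 the lowest (log2 fold changes -0.99 ± 0.09 and -1.37 ± 0.09). No p is given for these 2 genes, since they led to the list.

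Stc2 and Vldlr were the other effectors. Stc2, which codes for the secreted glycoprotein stanniocalcin 2, was at 10.4, 11.1 and 10.3 CPM in WT-Cyp26 and at 3.55, 3.00 and 4.47 CPM in Cyp26-E1-KO. It fell by 1.53 ± 0.16 on the log2 scale (adjusted p = 1.23e-05). The Cyp26-E2 libraries were at 3.04, 3.53 and 2.95 CPM, within the range of the other deletion or just below it. Vldlr, a lipoprotein receptor gene, was at 8.82, 7.75 and 6.44 CPM in the controls and at 3.25, 5.93 and 2.71 CPM in Cyp26-E1-KO, where replicate 2 was the highest deletion library and lay just under the lowest control. Vldlr fell by 0.95 ± 0.24 (adjusted p = 0.0101). The log2 fold change was -1.36 without replicate 2 of Cyp26-E1-KO, and the call was lost without replicate 1 of WT-Cyp26 (adjusted p = 0.0533).

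**Figure D2:**
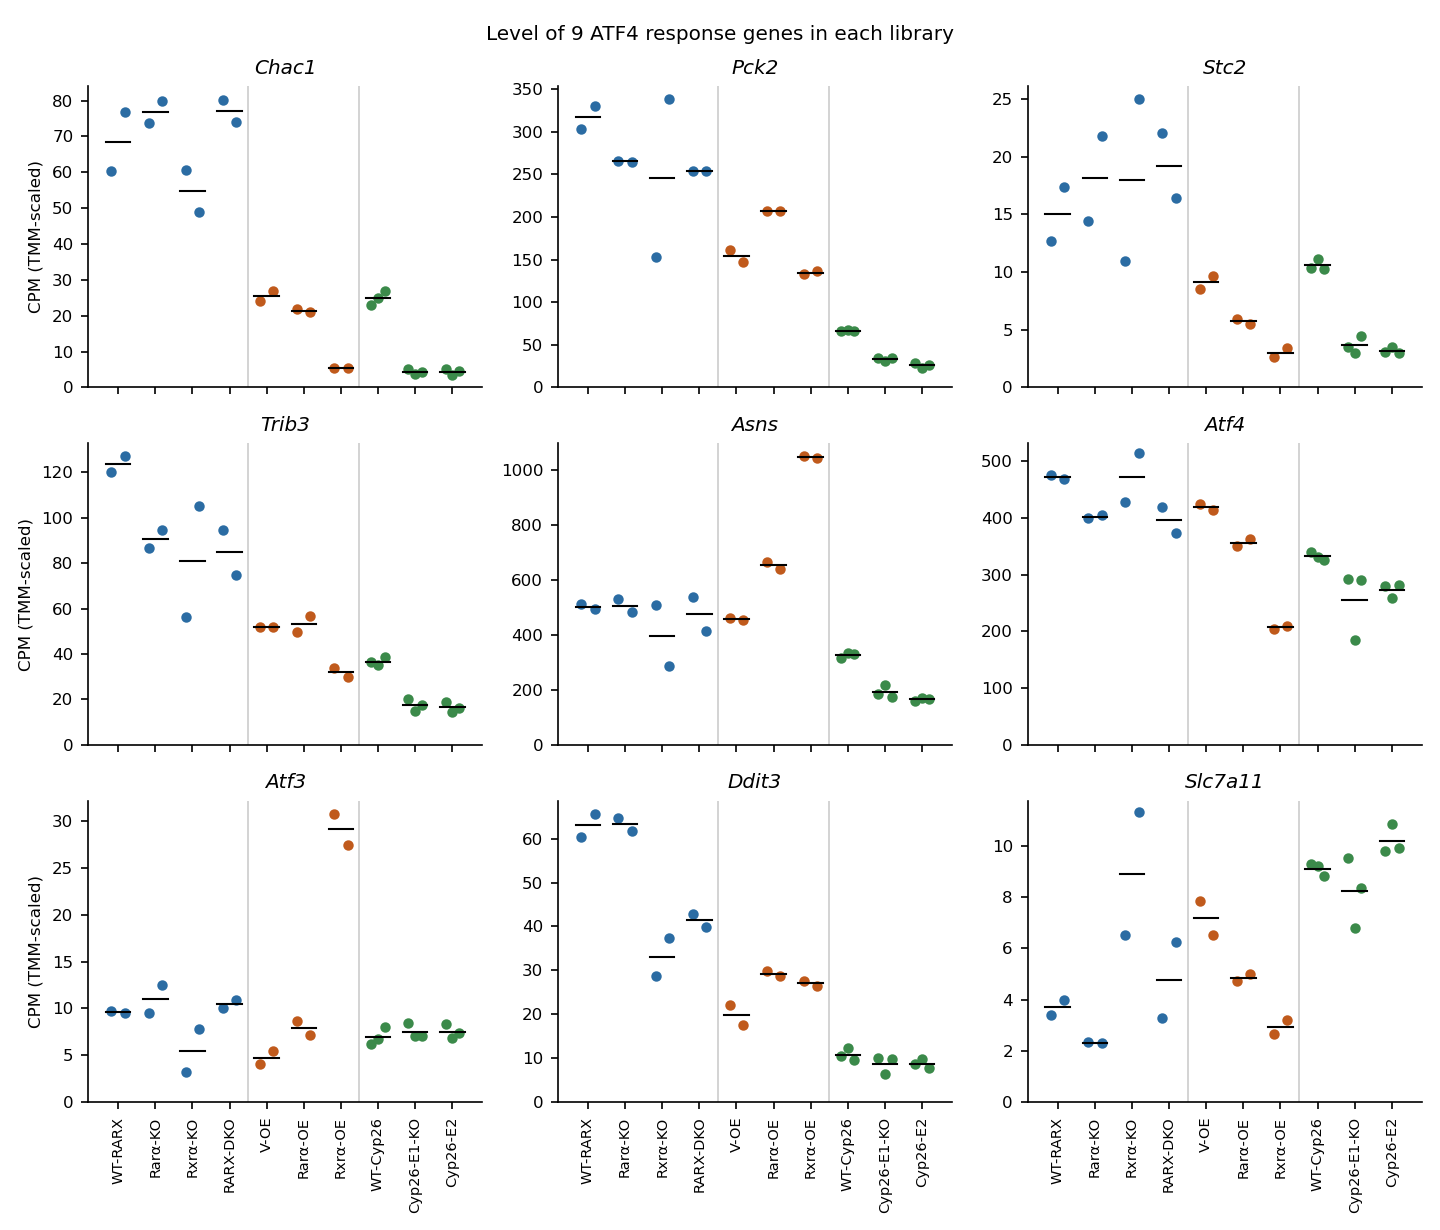
Level of 9 of the genes in CPM (vertical axes, from 0) in each of the 23 RNA libraries (points), by group (horizontal axis), with the group mean as a bar; grey lines separate the 3 tables, which were scaled separately. Chac1 was at 3.33 to 5.24 CPM in both enhancer deletions against 23.01 to 26.9 CPM in WT-Cyp26, and the Rxrα-KO libraries are far apart for Pck2, Trib3 and Stc2.

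Among the 9 transcriptional regulators, 2 fell and 1 rose in Cyp26-E1-KO. Atf4 itself, at chr15:80255184-80257541, was at 340, 332 and 327 CPM in WT-Cyp26, at 293, 184 and 290 CPM in Cyp26-E1-KO and at 280, 260 and 281 CPM in Cyp26-E2. All 6 deletion libraries lay below the controls, but the spread set by replicate 2 of Cyp26-E1-KO was wide, and Atf4 missed the test (log2 fold change -0.38 ± 0.14, adjusted p = 0.0779). Without that library its log2 fold change was only -0.19 and passed (adjusted p = 0.00195).

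Trib3, a pseudokinase gene induced by ATF4 and CHOP, was at 36.4, 34.9 and 38.7 CPM in the controls, at 20.1, 15.0 and 17.7 CPM in Cyp26-E1-KO and at 18.9, 14.4 and 16.2 CPM in Cyp26-E2. It fell by 1.06 ± 0.12 in Cyp26-E1-KO (adjusted p = 2.45e-05), with the 2 deletions at about the same level. Nupr1, a small stress-induced chromatin protein gene, was at 11.9, 14.3 and 13.6 CPM in the controls and at 7.91, 3.71 and 7.96 CPM in Cyp26-E1-KO, and it fell by 1.02 ± 0.22 (adjusted p = 0.00386), or by 0.74 without replicate 2. In Cyp26-E2 it was at 6.55, 6.29 and 5.88 CPM, again below every control library.

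Atf5, a relative of Atf4 that is likewise controlled by translation, moved the other way. It was at 47.8, 51.9 and 51.6 CPM in WT-Cyp26 and at 91.0, 60.2 and 81.5 CPM in Cyp26-E1-KO, a rise of 0.62 ± 0.13 (adjusted p = 0.00372). The Cyp26-E2 libraries were at 54.8, 43.3 and 50.3 CPM and overlapped the controls, so that Atf5 had the largest difference of any member between the 2 deletions, at -0.65 for Cyp26-E2 against Cyp26-E1-KO. Ddit3, which codes for CHOP, and Atf3 missed the test in Cyp26-E1-KO, at log2 fold changes of -0.30 and 0.11, and so did Cebpb, Cebpg and Jdp2, at -0.51, -0.17 and 0.06.

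The 3 genes of translation and growth control gave no call in Cyp26-E1-KO. Ppp1r15a, the eIF2 phosphatase subunit GADD34, was at 37.8, 35.9 and 34.5 CPM in the controls and at 47.0, 36.2 and 51.7 CPM in Cyp26-E1-KO, where only replicate 2 overlapped the controls (log2 fold change 0.32, adjusted p = 0.0802, and 0.45 with an adjusted p of 0.000276 without replicate 2). In Cyp26-E2 it was at 54.9, 41.2 and 49.3 CPM, all above the controls, at a log2 fold change of 0.43. Eif4ebp1, the translation repressor 4E-BP1, and Sesn2, an inhibitor of mTORC1, were at -0.25 and 0.01 in Cyp26-E1-KO.

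Of the 9 enzymes of amino acid and one-carbon metabolism, 7 fell in Cyp26-E1-KO: Asns, Psat1, Psph, Shmt2, Mthfd2, Aldh18a1 and Pycr1, by 0.49 to 0.77 on the log2 scale. Aldh18a1, which makes the first committed step from glutamate to proline, was at 107, 108 and 108 CPM in the controls, at 64.4, 68.8 and 61.6 CPM in Cyp26-E1-KO and at 64.1, 60.9 and 59.8 CPM in Cyp26-E2. Pycr1, the mitochondrial enzyme of the last step to proline, was at 20.1, 21.5 and 19.6 CPM in the controls and at 13.5, 12.4 and 12.5 CPM in Cyp26-E1-KO. Both proline genes lay below the controls in every deletion library, and in Cyp26-E1-KO they fell by 0.73 ± 0.07 (adjusted p = 2.54e-06) and fell by 0.67 ± 0.10 (adjusted p = 0.000177).

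The serine branch split. Phgdh, the first enzyme of serine synthesis, was at 161 to 163 CPM in WT-Cyp26 and at 174, 155 and 155 CPM in Cyp26-E1-KO, with a log2 fold change of 0.00 that missed the test. The next enzymes, Psat1 and Psph, fell by 0.50 ± 0.08 (adjusted p = 0.000425) and 0.51 ± 0.11 (adjusted p = 0.00409). Shmt2 and Mthfd2, which carry the serine carbon into mitochondrial folate, fell by 0.59 and 0.49. Cth, the enzyme that releases cysteine from cystathionine, missed the test at 0.23 with all 3 libraries and rose without replicate 2 of Cyp26-E1-KO (0.33, adjusted p = 1.11e-05).

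Of the 6 transporters 2 fell in Cyp26-E1-KO. Slc1a4, a carrier of neutral amino acids such as serine and alanine, was at 42.5, 41.8 and 44.5 CPM in the controls, at 20.6, 19.5 and 22.4 CPM in Cyp26-E1-KO and at 27.2, 23.5 and 25.4 CPM in Cyp26-E2, and it fell by 1.04 ± 0.09 (adjusted p = 1.54e-06). Slc7a1, the main carrier of arginine and lysine, went from 356, 353 and 347 CPM to 224, 281 and 229 CPM and fell by 0.53 ± 0.08 (adjusted p = 0.000261). The cystine and large neutral amino acid systems did not follow: Slc7a11, Slc7a5, their shared heavy chain Slc3a2, and the cationic carrier Slc7a3 were at -0.14, -0.09, -0.24 and -0.02, all short of the test. Without replicate 2 of Cyp26-E1-KO, Slc7a5 passed at -0.15 (adjusted p = 0.00959).

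The tRNA synthetase genes Sars, Wars, Gars, Nars and Aars all fell in Cyp26-E1-KO, and Xpot, the tRNA exporter, was at -0.08 and passed only without replicate 2 (-0.17, adjusted p = 0.00253). Wars, for tryptophan, was at 132, 149 and 142 CPM in the controls and at 67.8, 73.0 and 74.4 CPM in Cyp26-E1-KO, and it fell by 0.98 ± 0.07 (adjusted p = 2.95e-07). Sars, for serine, fell by 0.52 ± 0.06 and Aars, for alanine, by 0.41 ± 0.08. Gars and Nars had small log2 fold changes of -0.24 and -0.18, and their calls were lost with single libraries left out. For Gars these were replicates 2 and 3 of WT-Cyp26 and replicate 3 of Cyp26-E1-KO (adjusted p = 0.0836, 0.0542 and 0.0574). For Nars they were every control library and replicates 1 and 3 of Cyp26-E1-KO (adjusted p from 0.0666 to 0.205).

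Some members lie in stretches of chromosome whose genes moved together, and their values are given beside the median log2 fold change of all tested genes within 10 Mb. Asns, the asparagine synthetase gene on chromosome 6 at 7675169 to 7693254, was at 317, 334 and 331 CPM in WT-Cyp26, at 184, 217 and 174 CPM in Cyp26-E1-KO and at 158, 171 and 166 CPM in Cyp26-E2. It fell by 0.77 ± 0.08 in Cyp26-E1-KO (adjusted p = 8.62e-06), and the 46 genes around it had a median of -0.77, so Asns stood no lower than its neighbours. In Cyp26-E2 it was at -0.99 with a local median of -0.51. Wars had local medians of -0.37 and -0.26 in the 2 deletions against its own -0.98 and -0.84, and Trib3 had -0.22 and -0.24 against -1.06 and -1.15. Apart from these and Cebpb in Cyp26-E2 (local median -0.21), every member had a local median between -0.20 and 0.20 in both deletions; that of Chac1 was -0.11 and -0.10, and that of Pck2 0.02 and -0.03. With the members of a local median of 0.2 or more left out, an alternative chosen after the data were seen, 17 members fell and 1 rose in Cyp26-E1-KO. The part of such segments in the results was not tested.

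**Figure D3:**
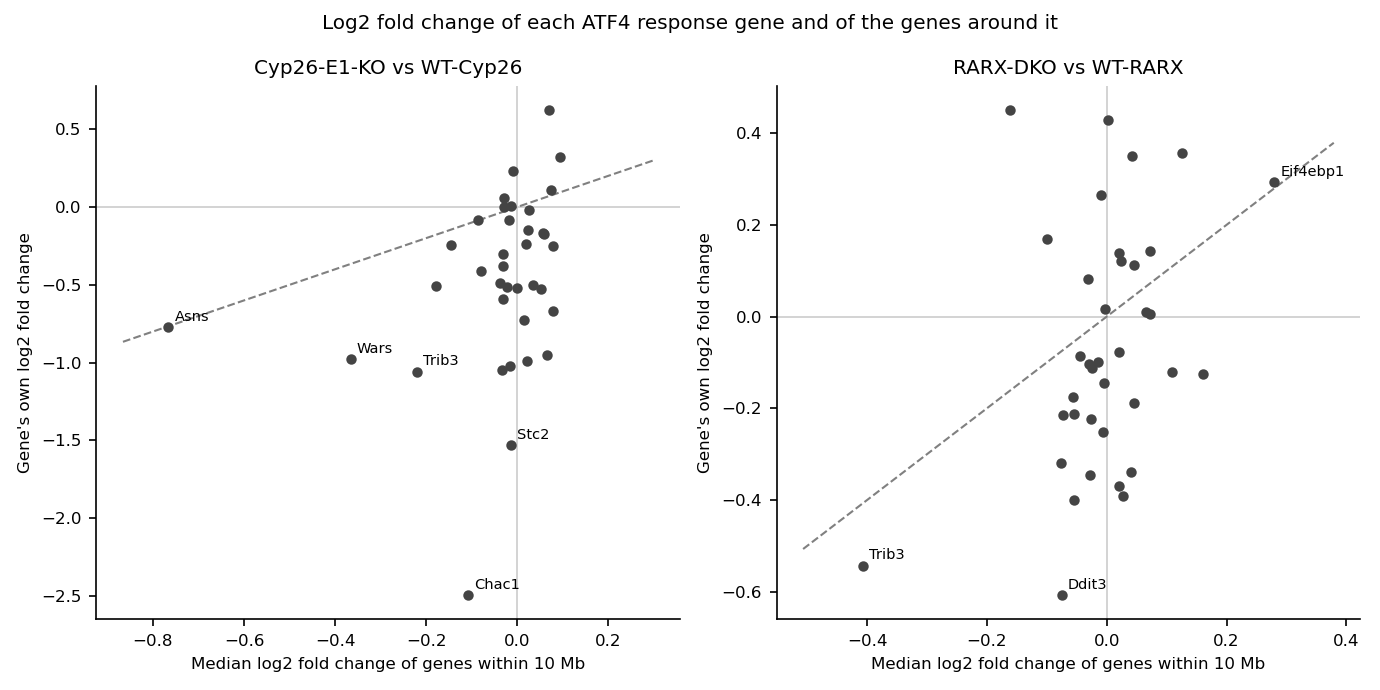
Each point is 1 of the 37 genes, with the median log2 fold change of the tested genes within 10 Mb on the horizontal axis and its own log2 fold change on the vertical axis; the dashed line marks equality. In Cyp26-E1-KO against WT-Cyp26 (left) Asns lies on the line and Chac1 and Stc2 lie far below it, and in RARX-DKO against WT-RARX (right) Trib3 and Eif4ebp1 lie near it.

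Between Cyp26-E2 and Cyp26-E1-KO the median log2 fold change of the members was -0.06, beside 0.00 over all tested genes. Atf5 (-0.65), Pck2 (-0.38) and Cth (-0.32) were the 3 members past the threshold, all lower in Cyp26-E2, where 4.49% of all tested genes were past it (2.02% higher, 2.46% lower). Each of the 3 fell short of it with at least 1 library left out, and with the 2 groups alone in the fit. All 3 libraries of Cyp26-E2 lay below those of Cyp26-E1-KO for 9 members, as they did for 11.7% of all tested genes. The Cyp26-E2 libraries are those that chose the list, so these are values only and nothing is read from the counts.

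The counts of rises and falls among the members differed between the 2 receptor overexpression groups. In Rarα-OE 17 of the 37 rose and 5 fell, where 28.6% of all 16914 tested genes were called, 14.7% higher and 13.9% lower. DESeq2 called 14 of the members there, 11 higher and 3 lower, and 2766 genes in all, and 12 of the 22 edgeR calls were kept with every library left out in turn. In Rxrα-OE 11 rose and 21 fell, where 60.2% were called, 30.9% higher and 29.3% lower. The median log2 fold changes were 0.15 and -0.25, beside 0.00 over all tested genes in both. Both libraries lay above both controls for 21 members in Rarα-OE and 11 in Rxrα-OE, as they did for 31.2% and 40.1% of all tested genes, and below for 12 and 21, as for 30.8% and 38.5%. The 2 comparisons share the V-OE controls. Counted by calls gene by gene, 8 members rose in both, 5 fell in both, 6 rose in Rarα-OE and fell in Rxrα-OE, and none did the opposite. Of these 6 only Pycr1 and Slc7a1 kept both calls with every library left out in turn. Nars, Nupr1 and Psat1 lost the rise in Rarα-OE, and Pck2 lost the fall in Rxrα-OE. In Rxrα-OE alone 10 were called lower and 3 higher, 3 were called in Rarα-OE alone and 2 in neither. Read directly against each other, 24 members were lower and 8 higher in Rxrα-OE than in Rarα-OE, where 47.2% of all tested genes were called, 23.8% higher and 23.4% lower.

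Atf4 and its relatives parted in Rxrα-OE. Atf4 was at 425 and 415 CPM in V-OE, at 350 and 363 CPM in Rarα-OE and at 204 and 210 CPM in Rxrα-OE, 3 levels with no overlap. It fell by 1.02 ± 0.04 in Rxrα-OE (adjusted p = 3.1e-27). Atf3, a stress-induced factor that is itself an ATF4 target, was at 4.11 and 5.41 CPM in V-OE, at 8.64 and 7.18 CPM in Rarα-OE and at 30.8 and 27.5 CPM in Rxrα-OE. Its rise of 2.59 ± 0.17 in Rxrα-OE (adjusted p = 3.27e-19) was the largest of any member in any comparison, and its smaller rise of 0.73 in Rarα-OE lost its call without replicate 1 of V-OE or replicate 1 of Rarα-OE (adjusted p up to 0.0936).

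Ddit3 was at 22.1 and 17.6 CPM in V-OE, at 29.8 and 28.7 CPM in Rarα-OE and at 27.5 and 26.5 CPM in Rxrα-OE, higher in both, by 0.57 ± 0.12 and 0.45 ± 0.12. The Rxrα-OE call was lost without replicate 2 of V-OE (adjusted p = 0.0898). Atf5, Cebpb and Jdp2 were called in Rxrα-OE but not in Rarα-OE, with rises of 0.53, 0.94 and 0.81 in Rxrα-OE. Their means in Rarα-OE were also above V-OE, at 81.9 against 73.0, 15.5 against 12.0 and 14.3 against 12.9 CPM. For Jdp2 the genes within 10 Mb had a median of 0.33 in Rxrα-OE. Trib3 and Nupr1 fell in Rxrα-OE, by 0.71 ± 0.09 and 0.89 ± 0.14, while Nupr1 rose in Rarα-OE (0.42), a call lost without replicate 2 of V-OE or replicate 1 of Rarα-OE (adjusted p up to 0.181). Cebpg was at 0.02 and -0.01, and neither value passed. The regulators thus held 5 rises and 3 falls in Rxrα-OE, and 3 rises and 1 fall in Rarα-OE. Over all tested genes 30.9% rose and 29.3% fell in Rxrα-OE, and 14.7% rose and 13.9% fell in Rarα-OE. The falls of the regulators were near those shares.

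Chac1 was low in Rxrα-OE as well. It was at 24.0 and 26.9 CPM in V-OE, at 21.8 and 21.0 CPM in Rarα-OE and at 5.44 and 5.41 CPM in Rxrα-OE, where it fell by 2.23 ± 0.16 (adjusted p = 5.3e-18). The Rarα-OE value of -0.25 missed the test. Stc2 was at 8.58 and 9.69 CPM in V-OE and at 2.66 and 3.38 CPM in Rxrα-OE, where it fell by 1.58 ± 0.24 (adjusted p = 1.15e-07). Pck2 did not follow them: it rose in Rarα-OE, from 161 and 147 CPM to 207 and 208 CPM (0.43 ± 0.05, adjusted p = 2.54e-09), and in Rxrα-OE it was at 133 and 137 CPM. Its log2 fold change of -0.19 there lost its call without replicate 1 of V-OE (adjusted p = 0.0963) and with libraries scaled by their totals (adjusted p = 0.158). Vldlr rose in Rarα-OE by 1.07 ± 0.23, from 4.35 and 4.39 CPM to 10.5 and 7.69 CPM. In Rxrα-OE it was at 7.98 and 5.83 CPM, and that rise of 0.64 was lost without either V-OE library or replicate 1 of Rxrα-OE (adjusted p up to 0.227).

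Of the 9 enzymes 2 rose and 6 fell in Rxrα-OE, where 30.9% of all tested genes rose and 29.3% fell. Asns was at 461 and 454 CPM in V-OE, at 666 and 641 CPM in Rarα-OE and at 1052 and 1044 CPM in Rxrα-OE. It rose by 0.52 ± 0.04 and by 1.20 ± 0.04 (adjusted p = 2.76e-16 and 2.72e-33), with local medians of 0.11 and 0.01. Aldh18a1 rose with it, by 0.45 and 0.59. In the same Rxrα-OE libraries Mthfd2 went from 197 and 192 CPM to 72.5 and 70.8 CPM and Cth from 190 and 187 CPM to 66.8 and 64.2 CPM. Mthfd2 fell by 1.44 ± 0.06 and Cth fell by 1.53 ± 0.06, while in Rarα-OE the 2 genes were at -0.11 and -0.14. Pycr1 and Psat1 rose in Rarα-OE, by 0.60 and 0.15, and fell in Rxrα-OE, by 0.40 and 0.44; the rise of Psat1 was lost without replicate 1 of V-OE or replicate 1 of Rarα-OE (adjusted p up to 0.0813). Phgdh rose in Rarα-OE by 0.49 ± 0.05 and was at -0.05 in Rxrα-OE.

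Of the transporters 4 fell in Rxrα-OE and none rose, where 29.3% of all tested genes fell and 30.9% rose. Slc7a3, a carrier of cationic amino acids was at 116 and 116 CPM in V-OE, at 62.0 and 72.4 CPM in Rarα-OE and at 20.9 and 23.3 CPM in Rxrα-OE. The 3 groups did not overlap, and Slc7a3 fell by 0.79 ± 0.07 in Rarα-OE and fell by 2.38 ± 0.09 in Rxrα-OE (adjusted p = 4.96e-13 and 2.61e-31). Slc7a1 rose in Rarα-OE (0.29) and fell in Rxrα-OE (-0.78), and Slc7a5 fell in Rxrα-OE (-0.51). Slc7a11, the cystine carrier whose promoter holds 2 matches, was at 7.85 and 6.53 CPM in V-OE and at 2.66 and 3.21 CPM in Rxrα-OE, where it fell by 1.27 ± 0.26 (adjusted p = 3.44e-05). Slc3a2 and Slc1a4 were at -0.01 and -0.04 in Rxrα-OE, and the genes within 10 Mb of Slc1a4 had a median of -0.25.

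Changes of the tRNA synthetase genes were small in the overexpression table. Sars, Wars, Gars and Nars rose in Rarα-OE by 0.11 to 0.28 and none of the 6 genes of the group fell. Over all tested genes 14.7% rose and 13.9% fell in Rarα-OE, and 30.9% rose and 29.3% fell in Rxrα-OE. In Rxrα-OE Sars and Wars rose by 0.11 and 0.30, and Nars, Aars and Xpot fell by 0.25, 0.14 and 0.35. The rise of Sars was lost without replicate 2 of V-OE or without either Rxrα-OE library (adjusted p up to 0.276). The call of Aars was lost without replicate 1 of Rxrα-OE (adjusted p = 0.053) and with libraries scaled by their totals (adjusted p = 0.322). Sesn2 rose in both groups, by 0.18 and 0.66, Ppp1r15a fell in both, by 0.34 and 0.42, and Eif4ebp1 fell in Rxrα-OE by 0.67. In Rarα-OE the calls of Cth, Slc1a4, Nars, Stc2, Ppp1r15a, Sesn2 and Wars were each lost with at least 1 library left out: Cth and Slc1a4 with any of the 4, Nars without either V-OE library or replicate 1 of Rarα-OE, Stc2 without replicate 2 of V-OE or either Rarα-OE library, and Ppp1r15a, Sesn2 and Wars without replicate 2 of V-OE or replicate 2 of Rarα-OE (adjusted p up to 0.237).

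**Figure D4:**
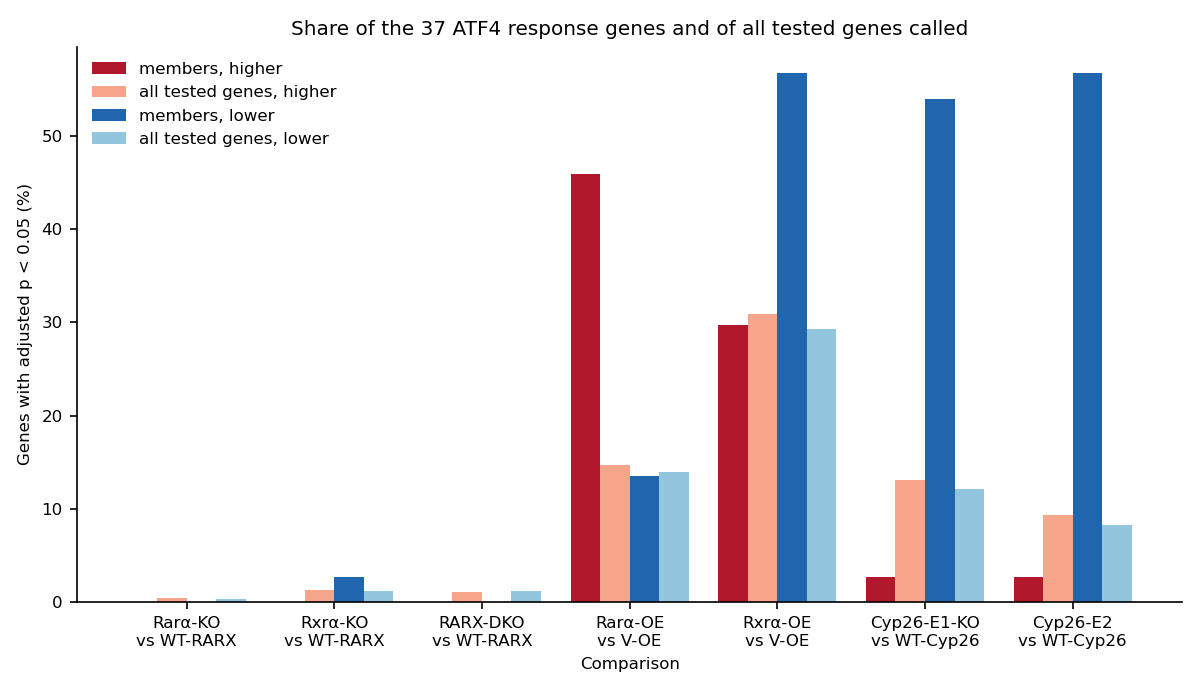
Share of genes with an adjusted p under 0.05 (vertical axis, percent, from 0) in each comparison with a control (horizontal axis), for the 37 members and for all tested genes, split into higher and lower. The bars of members called lower stand above those of all genes in Rxrα-OE, Cyp26-E1-KO and Cyp26-E2, at 21, 20 and 21 of 37, and the bar of members called higher does so in Rarα-OE, at 17 of 37; the Cyp26-E2 bars are a description.

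In the receptor knockouts few members were called, as were few of all genes, so these counts do not set the members apart. No member passed in Rarα-KO against WT-RARX, where 0.645% of all 16445 tested genes were called by edgeR (0.389% higher, 0.255% lower); 1 member had an unadjusted p under 0.05 and DESeq2 called none. Likewise none passed in RARX-DKO against WT-RARX, where 2.24% of all genes were called (1.05% higher, 1.19% lower); 7 members had an unadjusted p under 0.05 and DESeq2 called none. In Rxrα-KO 1 member fell, Ddit3, where 2.47% of all genes were called, 1.28% higher and 1.2% lower. The median log2 fold changes were -0.10, -0.10 and -0.08 in Rarα-KO, RARX-DKO and Rxrα-KO, beside 0.00, 0.01 and -0.01 over all tested genes, and the 3 comparisons share the WT-RARX libraries. Both knockout libraries lay below both controls for 14, 17 and 10 members, as they did for 24.2%, 23.1% and 25% of all tested genes.

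Ddit3 was at 60.4 and 65.7 CPM in WT-RARX, at 64.7 and 61.8 CPM in Rarα-KO, at 28.8 and 37.4 CPM in Rxrα-KO and at 42.9 and 39.8 CPM in RARX-DKO. The groups that lack Rxra lay below the other 2 with no overlap. Ddit3 fell by 0.93 ± 0.16 in Rxrα-KO (adjusted p = 0.0111) and was at -0.61 ± 0.16 in RARX-DKO (adjusted p = 0.0704). The call was lost without replicate 1 of WT-RARX, replicate 2 of WT-RARX or replicate 1 of Rxrα-KO (adjusted p = 0.0714, 0.19 and 0.0545), with log2 fold changes from -0.75 to -0.98. Against Rarα-KO, where 5.38% of all genes were called (2.19% higher, 3.19% lower), 2 members passed in Rxrα-KO. Ddit3 was lower (-0.94, adjusted p = 0.00767, or 0.059 without replicate 2 of Rarα-KO).

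Slc7a11 was the other, at 2.35 and 2.29 CPM in Rarα-KO and at 6.51 and 11.3 CPM in Rxrα-KO, with WT-RARX between them at 3.41 and 3.99 CPM. It was higher by 1.93 ± 0.42 (adjusted p = 0.0187), and the call was lost without replicate 1 or 2 of Rarα-KO or replicate 2 of Rxrα-KO (adjusted p = 0.0854, 0.157 and 0.109). Both libraries of Rxrα-KO were above WT-RARX for 4 of the 6 transporters, Slc7a11, Slc7a3, Slc7a5 and Slc3a2. Their log2 fold changes of 1.26, 0.75, 0.37 and 0.24 did not pass. Of all 37 members 5 lay above the controls in this way, as did 22.8% of all tested genes, and 10 lay below, as did 25%.

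RARX-DKO gave no call among the members against either single knockout. Against Rarα-KO 0.0122% of all genes were called, all of them lower, and 2 members had an unadjusted p under 0.05 and DESeq2 called none; against Rxrα-KO 3.5% were called (2.01% higher, 1.48% lower), 8 members had an unadjusted p under 0.05 and DESeq2 called 1.

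Chac1 and Pck2, the genes that led to the list, gave no call here. Chac1 was at 60.4 and 76.7 CPM in WT-RARX, at 73.8 and 79.9 CPM in Rarα-KO, at 60.7 and 48.9 CPM in Rxrα-KO and at 80.2 and 74.1 CPM in RARX-DKO. All 3 knockout groups overlapped the controls, and none of the values passed. Pck2 was at 303 and 331 CPM in WT-RARX, at 266 and 265 CPM in Rarα-KO, at 153 and 338 CPM in Rxrα-KO and at 254 and 254 CPM in RARX-DKO. One Rxrα-KO library was thus the lowest and the other the highest of all 8 for Pck2.

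The 2 Rxrα-KO libraries were also apart in other members. Replicate 2 of Rxrα-KO was above replicate 1 in 31 of the 37 members, whereas 49.31% of all genes at 10 CPM or more were higher in it. In WT-RARX replicate 2 was the higher one in 28 members (56.49% of all such genes), in Rarα-KO in 14 (45.1%) and in RARX-DKO in 21 (52.09%). In Rxrα-KO the libraries were 1.5 times apart or more in 9 of 35 members at that level, as were 9.54% of all such genes. The widest was Jdp2, a dimerisation partner of ATF factors, at 7.42 and 35.5 CPM, followed by Atf5 at 90.7 and 267 CPM. With replicate 1 of Rxrα-KO left out the median of the members against WT-RARX was 0.05 (1 called higher, 2 lower), and with replicate 2 left out it was -0.23 (3 lower). In the other 3 groups of the table at most 4 of the members at that level were 1.5 times apart or more.

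Trib3 lay below WT-RARX in every knockout library. It was at 120 and 127 CPM in WT-RARX, at 86.5 and 94.6 CPM in Rarα-KO, at 56.5 and 105 CPM in Rxrα-KO and at 94.7 and 74.9 CPM in RARX-DKO. The log2 fold changes of -0.45, -0.61 and -0.54 did not pass, and the 191 genes within 10 Mb had medians of -0.42, -0.48 and -0.41, so Trib3 moved about as far as its neighbours. Local medians past 0.2 in size were also found for Cebpb in Rxrα-KO (-0.42, beside its own -0.59), Asns in Rxrα-KO (-0.24, beside -0.34) and Eif4ebp1 in RARX-DKO (0.28, beside 0.29), and in Rxrα-KO for Wars and Mthfd2 (-0.23 and -0.20, beside -0.60 and -0.13). For Asns the local level was low in replicate 2 of Rxrα-KO alone, the library where Asns was at 285 CPM against 509 CPM in replicate 1.

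The rest of the pathway was read from 4 further lists, chosen like the members with earlier results known. Their counts stand beside shares of all tested genes called of 25.3% in Cyp26-E1-KO (13.1% higher, 12.1% lower), 28.6% in Rarα-OE (14.7% and 13.9%) and 60.2% in Rxrα-OE (30.9% and 29.3%), and several are near them: in Rarα-OE 5 of 17 and 6 of 20 were called in the lists of eIF2 and of XBP1 and ATF6 genes. Without replicate 2 of Cyp26-E1-KO, 6217 of 19368 tested genes were called there, 3214 higher and 3003 lower. No list was tested as a whole. The list of eIF2 kinases with the eIF2 and eIF2B machinery, which acts upstream of ATF4, held 1 rise and 1 fall among 18 genes in Cyp26-E1-KO (Eif2b5 at 0.40, Oma1 at -0.39; 1 rise and 5 falls without replicate 2 of Cyp26-E1-KO), 1 rise and 4 falls among 17 in Rarα-OE, and 3 rises and 9 falls in Rxrα-OE. There Eif2s1 and Eif2s2, subunits of eIF2, fell by 0.91 ± 0.05 and 0.86 ± 0.04 and Impact, an inhibitor of the kinase GCN2, fell by 0.71. In Rxrα-KO, where 2.47% of all tested genes were called (1.28% higher, 1.2% lower), Impact was the only call of the 4 lists. It went from 98.0 ± 1.8 to 195 ± 13 CPM (SD, n = 2, log2 fold change 0.99, adjusted p = 0.0166). This call was not checked with a library left out. Genes called in that comparison numbered 407, but 73 without replicate 1 of WT-RARX and 21 without its replicate 2.

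A list of further ATF4 and amino acid genes, of which 20 were tested, held 3 rises and 9 falls in Cyp26-E1-KO, or 3 and 12 without replicate 2. The lowest were Adm2 (-2.27, from 2.47 ± 0.20 to 0.50 ± 0.41 CPM, SD, n = 3), a peptide hormone gene, Herpud1 (-1.21), of endoplasmic reticulum protein degradation, and Vegfa (-1.03), a secreted growth factor gene. Herpud1 was at 30.3 ± 1.9 CPM in WT-Cyp26, 13.1 ± 1.0 CPM in Cyp26-E1-KO and 13.0 ± 2.4 CPM in Cyp26-E2 (SD, n = 3). In Rarα-OE 7 rose and 3 fell, led by Slc1a5 (1.13) and Vegfa (1.04), and in Rxrα-OE 7 rose and 11 fell, with Adm2 (-1.70), Gdf15 (-1.69) and Slc43a1 (-1.55) the lowest. Vegfa thus fell in Cyp26-E1-KO and rose in Rarα-OE, 2 tables with different controls. RARX-DKO held 2 calls, Ddit4 (0.94) and Slc1a5 (-0.77), among 21, where 2.24% of all tested genes were called (1.05% higher, 1.19% lower).

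Of 15 other cytosolic tRNA synthetase genes 8 fell and none rose in Cyp26-E1-KO (11 fell without replicate 2), with Cars (-0.50), Mars (-0.27) and Vars (-0.27) the lowest, and 11 fell and none rose in Rxrα-OE, with Rars (-0.54), Farsa (-0.46) and Tars (-0.42) the lowest. In Rarα-OE 2 rose and 3 fell. The medians of this list were -0.18 in Cyp26-E1-KO, -0.22 in Rxrα-OE and 0.01 in Rarα-OE.

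The XBP1 and ATF6 genes, which serve the other arms of the unfolded protein response, went the other way in Cyp26-E1-KO: 9 of 20 rose and none fell, with a median of 0.23. Without replicate 2 of that group 12 rose and 1 fell, Xbp1 itself (-0.17, adjusted p = 0.033), with a median of 0.18. Sel1l, of endoplasmic reticulum degradation, went from 70.7 ± 3.6 to 113 ± 15 CPM, the chaperone Dnajb11 from 79.2 ± 4.2 to 117 ± 7 CPM and Atf6 from 59.9 ± 2.3 to 86.3 ± 14.8 CPM (SD, n = 3). They rose by 0.67, 0.57 and 0.53 (adjusted p = 6.25e-05, 3.33e-05 and 0.00148). In Cyp26-E2, as a description, 5 were higher and none lower, where 9.28% of all tested genes were called higher and 8.2% lower. In Rxrα-OE 4 rose and 11 fell, with Sel1l again higher (0.69) and Manf and Xbp1 lower (-0.63 and -0.59), and in Rarα-OE 5 rose and 1 fell. In Rarα-KO none of the 4 lists held a call by edgeR, where 0.645% of all tested genes were called.

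The members with a promoter match can be set beside those without. In Cyp26-E1-KO 10 of the 13 with a match fell, with a median of -0.77, and 8 of the 18 without one fell, with a median of -0.43. In Rarα-OE 8 of the 13 rose and none fell, against 7 rises and 3 falls among the 18. In Rxrα-OE 4 rose and 7 fell among the 13, against 6 and 9 among the 18. Of all tested genes 13.1% rose and 12.1% fell in Cyp26-E1-KO, and 14.7% rose and 13.9% fell in Rarα-OE. In Rxrα-OE 30.9% of all tested genes rose and 29.3% fell, so the rises there were near that share with and without a match. No test of these differences was made, and the 13 include Asns, Chac1 and Pck2.

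Levels compared between genes per length put Atf4 first in each control group, at 201 CPM per kb of exon in WT-RARX, 178 in V-OE and 141 in WT-Cyp26. Asns and Gars took the next places in WT-RARX, at 184 and 182 CPM per kb, and in WT-Cyp26 Gars was at 124 and Asns at 120. Slc7a11 and Vldlr were at the foot of the order in V-OE, at 0.52 and 0.43 CPM per kb, and in WT-Cyp26, at 0.65 and 0.76. Chac1, Atf3 and Slc7a3, the members with a log2 fold change over 2 in size in any comparison, ranked from 18 to 34 of 37 in the control groups.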

How the data were processed

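The authors deposited raw counts of reads per gene in 3 tables, 23 RNA libraries in all. The submitters' processing notes name mm10 and, with no roles, DESeq2 1.18.1, HTSeq 0.9.1 and HISAT2 2.1.0 among others. Counting strand is not given in the sources used here, so reads of overlapping antisense genes cannot be told apart. Members were matched by symbol, in the enhancer table through GENCODE vM21. ChIP-seq and 4C-seq samples were not used here.

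Each table was fitted as a whole, every group included, to its counts in edgeR 4.0.16 (R 4.3.3), using TMM factors, its default filter with min.count 10, robust quasi-likelihood F tests, and Benjamini-Hochberg adjustment over all tested genes, threshold 0.05. A standard error is the size of the log2 fold change divided by √F. The code was tested on simulated data. Alternatives were DESeq2 1.42.0, totals scaling, no filter, a replicate block, 2 groups alone, and each library left out. The members, roles and lists were chosen with earlier results of these data known. Every member could be named, and from the other lists up to 3 called genes with the largest change per comparison. Replicate numbers of Cyp26-E1-KO and Cyp26-E2 were not shown to pair. Correlations of same-numbered deviations were 0.12 to 0.40, and those of other numbers ran from -0.345 to 0.263. The block left 3 members called between these groups.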

Additional observations from a re-analysis of the deposited data

How the results depend on the processing

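No called member changed direction under any alternative run, including scaling by totals. Counts of called members that moved by over 1.5 times were as follows. For Rxrα-KO against WT-RARX (1) they were 2 with DESeq2, 5 with no filter and 2 with the 2 groups alone, and 0 to 3 with a library left out. For RARX-DKO against WT-RARX (0), no filter gave 2. For Rxrα-KO against Rarα-KO (2), DESeq2 gave 4 and no filter 7, and leaving out a library 0 to 6. For RARX-DKO against Rxrα-KO (0), DESeq2 gave 1, no filter 1, and leaving out a library 0 to 1. For Rarα-OE against V-OE (22), DESeq2 gave 14, and leaving out a library 15 to 18. For Cyp26-E2 against Cyp26-E1-KO (3), totals gave 1, the 2 groups alone 0, and leaving out a library 0 to 6. Leaving out a library gave 19 to 27 in Cyp26-E1-KO (21), 18 to 20 in Cyp26-E2 (22), 29 to 31 in Rxrα-OE (32) and 28 to 31 between the overexpression groups (32). The cause of these shifts was not tested.

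Calls kept with every library left out in turn numbered 18 of 21 in Cyp26-E1-KO, 12 of 22 in Rarα-OE, 27 of 32 in Rxrα-OE and 27 of 32 between the overexpression groups. In Cyp26-E2 they numbered 18 of 22, and between Cyp26-E2 and Cyp26-E1-KO 0 of 3. In Rxrα-KO they numbered 0 of 1 against WT-RARX and 0 of 2 against Rarα-KO. All counts of Cyp26-E2 members in this section are a description, since that comparison chose the list, and nothing is read from them. Across groups, replicates share only a number. With a replicate block the counts were 1 in Rxrα-KO, 21 in Rarα-OE, 31 in Rxrα-OE, 23 in Cyp26-E1-KO and 20 in Cyp26-E2. No call of a member named above was lost but those of Nars in Rarα-OE and both deletions, Sars in Rxrα-OE and Cebpg in Cyp26-E2. The numbers of RARX-DKO may be crossed (correlations -0.13, -0.32 and -0.15): the crossed replicate block, added after the data were seen, gave 1 member against WT-RARX, 0 against Rarα-KO and 1 against Rxrα-KO, with 636, 9 and 948 genes called in all.

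Counts over all genes also moved by over 1.5 times: in Rarα-KO from 106 to 269 with DESeq2, 551 with no filter and 588 with the 2 groups alone; in Rxrα-KO from 407 to 654 and 1084 with the first 2; in RARX-DKO from 368 to 582 and 981; against Rarα-KO from 885 to 1840 with no filter in Rxrα-KO, and from 2 to 19 and 58 in RARX-DKO (0 with the 2 groups alone); in RARX-DKO against Rxrα-KO from 575 to 1366 with no filter and 30 with the 2 groups alone; in Rarα-OE from 4829 to 2766 with DESeq2; in Cyp26-E2 from 3280 to 5731 with the 2 groups alone, and against Cyp26-E1-KO from 842 to 1357, 1384 and 339. With a library left out they ran from 8 to 29 in Rarα-KO, 21 to 361 in Rxrα-KO (21 without replicate 2 of WT-RARX, 73 without its replicate 1), 32 to 408 in RARX-DKO (32 and 53 without the same libraries), 111 to 648 in Rxrα-KO against Rarα-KO (111 without replicate 2 of Rarα-KO), 3 to 47 and 174 to 879 in RARX-DKO against Rarα-KO and Rxrα-KO, 1978 to 2220 in Cyp26-E2 and 310 to 1852 against Cyp26-E1-KO, so the shares of all genes printed for these comparisons move as much. Totals scaling moved the median of all genes to 0.10 in Rxrα-OE and to -0.10 in Rxrα-KO against Rarα-KO, and moved the split of higher to lower genes from 210 and 197 to 170 and 258 in Rxrα-KO, from 360 and 525 to 254 and 731 against Rarα-KO, from 331 and 244 to 414 and 173 in RARX-DKO against Rxrα-KO, and from 380 and 462 to 505 and 334 in Cyp26-E2 against Cyp26-E1-KO. The split also went from 5230 and 4948 to 6078 and 4064 in Rxrα-OE and from 2482 and 2347 to 2947 and 1899 in Rarα-OE. In Cyp26-E1-KO it went from 2464 and 2277 to 2163 and 2593. With totals scaling 11 members were called higher and 19 lower in Rxrα-OE, 19 and 4 in Rarα-OE and 1 and 20 in Cyp26-E1-KO.

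With 2 or 3 libraries a group, 7408691 to 33601996 counts each, and 1 line, changes of a member under the spread between libraries were not detectable; a p that misses the threshold does not show equal levels. RNA was measured, not ATF4 protein or eIF2 phosphorylation.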
